A study of Homo sapiens with 14 samples.

Results

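The genes described here are 10 transcription factors that mark regions of the foregut, out of 63677 gene IDs in each bulk RNA-seq table, of which 28031 had a read. They were taken as a named list: PDX1, MNX1, SOX9, ISL1, NKX6-1 and PTF1A for the pancreatic region, NKX2-1 for lung and thyroid, TBX1 for the pharynx, and BARX1 and NKX6-3 for the stomach. The questions were which region the cultures resembled and whether repression of LTR5 elements shifted it. LTR5 elements are the long terminal repeats of HERVK endogenous retroviruses, in the subfamilies LTR5_Hs, LTR5B and LTR5A.

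All 12 bulk libraries came from H9, an established human embryonic stem cell (hESC) line. There were 2 libraries of undifferentiated hESC in maintenance medium. There were 3 libraries of control endoderm carrying dCAS9-KRAB, a dead Cas9 fused to a repressor domain, without a sgRNA, and 3 of endoderm carrying dCAS9-KRAB with a sgRNA designed on the LTR5B consensus. Endoderm was made over 3 days in Activin A at 100 ng/ml, with the WNT agonist CHIR-99021 at 5 µM on the first day and 0.5 µM on the second. There were 2 libraries each of control foregut and of foregut with the LTR5 sgRNA, grown for 3 further days by a commercial pancreatic differentiation protocol. The sgRNA groups are called CRISPRi below. The dCAS9-KRAB cells were transduced by lentivirus and selected with puromycin, and whether clones were taken was not stated. The foregut titles read control and CRISPRi alone, the study's text gives LTR5 as the target there, and whether the foregut controls carried dCAS9-KRAB was not stated. The study's methods describe RNA-seq replicates as biologically independent without saying what separated them. The p-values rest on the spread between these libraries combined with the trend of that spread over genes. In each comparison the trend carried most of the degrees of freedom. For the sgRNA in foregut the spread was taken from the trend alone.

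The foregut libraries stood apart from the others before any result was drawn. They held 20811663 to 37152434 gene reads against 11583063 to 23539769 in hESC and endoderm. They nevertheless detected fewer genes, 15005 to 17926 against 19678 to 20973. Of the detected genes, 3.61 to 4.53% had 1 to 5 reads in foregut, against 21.96 to 25.7% elsewhere, so low counts came in larger steps there. Mitochondrial genes held 17.6 to 34.7% of foregut reads and 8.30 to 25.5% of the others. These libraries were deposited separately, so tissue and batch cannot be told apart. Their titles gave the groups used here, whereas their status fields read hESC for the controls and endoderm without sgRNA for the CRISPRi libraries. POU5F1, a pluripotency factor, was at 425 CPM in hESC and 3.42 CPM in the libraries titled control foregut. CER1, a definitive endoderm gene, was at 3863 CPM in control endoderm and 1.05 CPM in the libraries titled CRISPRi foregut. Title and status field also disagree on whether the latter carried a sgRNA, and its presence in them was not tested.

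The LTR5B elements on which the sgRNA was designed had fewer reads with it in both tissues. Summed over 424 LTR5B integrants, the 3 endoderm controls gave 4.93, 5.51 and 5.74 CPM (reads per 1000000 of the TMM library size) and the 3 CRISPRi libraries 1.67, 3.24 and 2.94. The foregut controls gave 13.3 and 8.74 CPM and the foregut CRISPRi libraries 6.31 and 3.90. The groups did not overlap in either tissue. LTR5_Hs, over 614 integrants, was at 18.7 ± 0.291 and 12.6 ± 1.02 CPM in control and CRISPRi endoderm (SD, n = 3) and overlapped between the foregut groups. LTR5A, over 258 integrants, was higher with the sgRNA in endoderm, at 50.2 ± 14.0 against 98.2 ± 9.65 CPM. These sums were not tested.

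As background, the gut tube is divided along its length by transcription factors. PDX1 marks the pancreatic and duodenal region, and NKX6-1 and PTF1A follow it as pancreatic progenitors commit to endocrine or acinar fates. MNX1 acts in the early dorsal pancreatic bud, SOX9 maintains pancreatic progenitors among many other roles, and ISL1 acts in endocrine cells and in mesenchyme around the bud. NKX2-1 is required for lung and thyroid, TBX1 for the pharyngeal arches and pouches, BARX1 acts in stomach mesenchyme and NKX6-3 in the distal stomach. Several are also used outside the gut, such as MNX1 in motor neurons and ISL1 in heart progenitors.

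Upstream sequences are shown for ISL1 and MNX1, since both rose from near 0 in the endoderm. RefSeq promoters (GRCh38.p14) were matched for 5 of the 10 members: MNX1, NKX2-1, NKX6-1, TBX1 and ISL1. PDX1, SOX9, NKX6-3, PTF1A and BARX1 were not matched. The 250 bases before the start are given 5′ to 3′, at chr5:51383198-51383447 on the plus strand for ISL1 and chr7:157010664-157010913 on the minus strand for MNX1. Capitals mark the letters AGATAA or AGATAG, and likewise TGATAA or TGATAG, on either strand, as in the motif of GATA factors.
ISL1: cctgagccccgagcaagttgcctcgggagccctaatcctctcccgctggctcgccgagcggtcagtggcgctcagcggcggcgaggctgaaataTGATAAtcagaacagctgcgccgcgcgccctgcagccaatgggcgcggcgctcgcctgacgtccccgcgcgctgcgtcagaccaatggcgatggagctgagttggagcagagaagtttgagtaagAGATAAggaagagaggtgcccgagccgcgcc
MNX1: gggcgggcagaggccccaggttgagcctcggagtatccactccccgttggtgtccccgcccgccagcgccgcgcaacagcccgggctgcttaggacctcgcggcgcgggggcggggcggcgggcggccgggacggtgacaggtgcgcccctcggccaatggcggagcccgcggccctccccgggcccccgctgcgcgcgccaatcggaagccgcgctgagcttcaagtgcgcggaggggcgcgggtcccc

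ISL1 held 2 GATA matches, which began 156 and 31 bases before the start, and MNX1 held 0. Of all 35116 promoter windows of this length, 22.3% held at least 1 such match. The letters TGTTTAC and TATTTAC, as in the motif of FOX factors, were searched on both strands. They were in neither sequence and in 5.27% of all windows. GC content was 65.2% for ISL1 and 78.8% for MNX1, against a median of 58.0% over all windows. Chromatin was read on the same build in the gastruloids of this series, H9 aggregates harvested at 72 h. There, 9 of the 10 members had an accessible peak within 1 kb of the start, as had 78.5% of 18787 protein-coding genes. The exception was NKX6-3, whose closest peak lay 2791 bases away. Members with next to no bulk reads, such as PTF1A with 2 peaks, were among the 9.

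In hESC, SOX9 and TBX1 were the members with clear reads. SOX9 was at 8.43 ± 0.689 CPM and TBX1 at 6.33 ± 0.655 CPM (SD, n = 2). BARX1 was at 0.726 and 2.05 CPM. The other members had 0 to 3 reads in either library. Per kb of exon, SOX9 stood at 2.15 CPM, TBX1 at 1.61 and BARX1 at 0.791, and the ranges of these neighbours in the order did not overlap.

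Control endoderm differed from hESC in 4 of the 10 members. MNX1, ISL1 and BARX1 were higher and SOX9 was lower, and 8 members passed the filter of 3 reads in 1 library. Calls needed an adjusted p under 0.05 (edgeR quasi-likelihood test, Benjamini–Hochberg over all genes tested) and a fold change over 2. Over all 20818 genes tested, 14.2% were called higher and 11.8% lower. In bulk RNA, fewer cells of a type and less RNA per cell cannot be told apart.

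MNX1 had 0 and 2 reads in the 2 hESC libraries and 158, 159 and 117 in the 3 endoderm libraries. The groups did not overlap, and the ratio of summed reads was 182 (95% counting interval 50.1 to 1508, adjusted p = 7.1e-08). Endoderm stood at 7.54 ± 0.289 CPM (SD, n = 3).

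ISL1 had 0 and 1 reads in hESC and 177, 139 and 120 in endoderm, a ratio of 366 (95% counting interval 65.3 to 14480, adjusted p = 4.4e-08). These intervals, and the floors below, cover counting error only. ISL1 and MNX1 thus came up by the third day of endoderm, before the foregut medium. MNX1-AS1, an antisense transcript that shares no exon bases with MNX1, had 0 reads in hESC and 25 to 48 in control endoderm. ISL1-DT, which is divergent from ISL1, had 0 reads in hESC and 5 to 10 in control endoderm. In the libraries of this comparison, both neighbours had reads only where the factor did.

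BARX1, the stomach mesenchyme factor, was the most abundant member of the endoderm per exon length, at 9.64 CPM per kb. Its 3 endoderm libraries gave 28.1, 10.2 and 12.5 CPM against 0.726 and 2.05 CPM in hESC. The log2 fold change was 3.60 (SE 0.488, adjusted p = 3.1e-05). The first endoderm library stood well above the other 2, and the groups did not overlap. ISL1, TBX1 and MNX1 followed at 2.70, 2.25 and 1.79 CPM per kb, with ranges that overlapped between neighbours.

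SOX9 fell by 2.54 on the log2 scale (SE 0.313, adjusted p = 1.2e-05), from 7.95 and 8.92 CPM to 1.79, 0.964 and 1.59 CPM. TBX1 gave 6.79 and 5.87 CPM in hESC and 6.72, 8.86 and 10.9 CPM in endoderm. These groups overlapped, and its log2 fold change of 0.48 (95% interval -0.10 to 1.06) was not called.

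The lung and thyroid factor NKX2-1 had 0 reads in hESC and 1, 7 and 2 in endoderm, at least 2.80-fold higher against a floor of 3 reads over the hESC group (adjusted p = 0.088). Its exons share 1033 bases with SFTA3 and 402 with NKX2-1-AS1, both at 0 reads in every library, and how reads on shared bases were assigned was not tested. NKX6-1 had 3 and 3 reads in hESC and 7, 4 and 1 in endoderm, and PTF1A had 3 and 1 against 0, 1 and 0. PDX1 had 1 read in the 5 libraries together and NKX6-3 had 0.

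**Figure D1:**
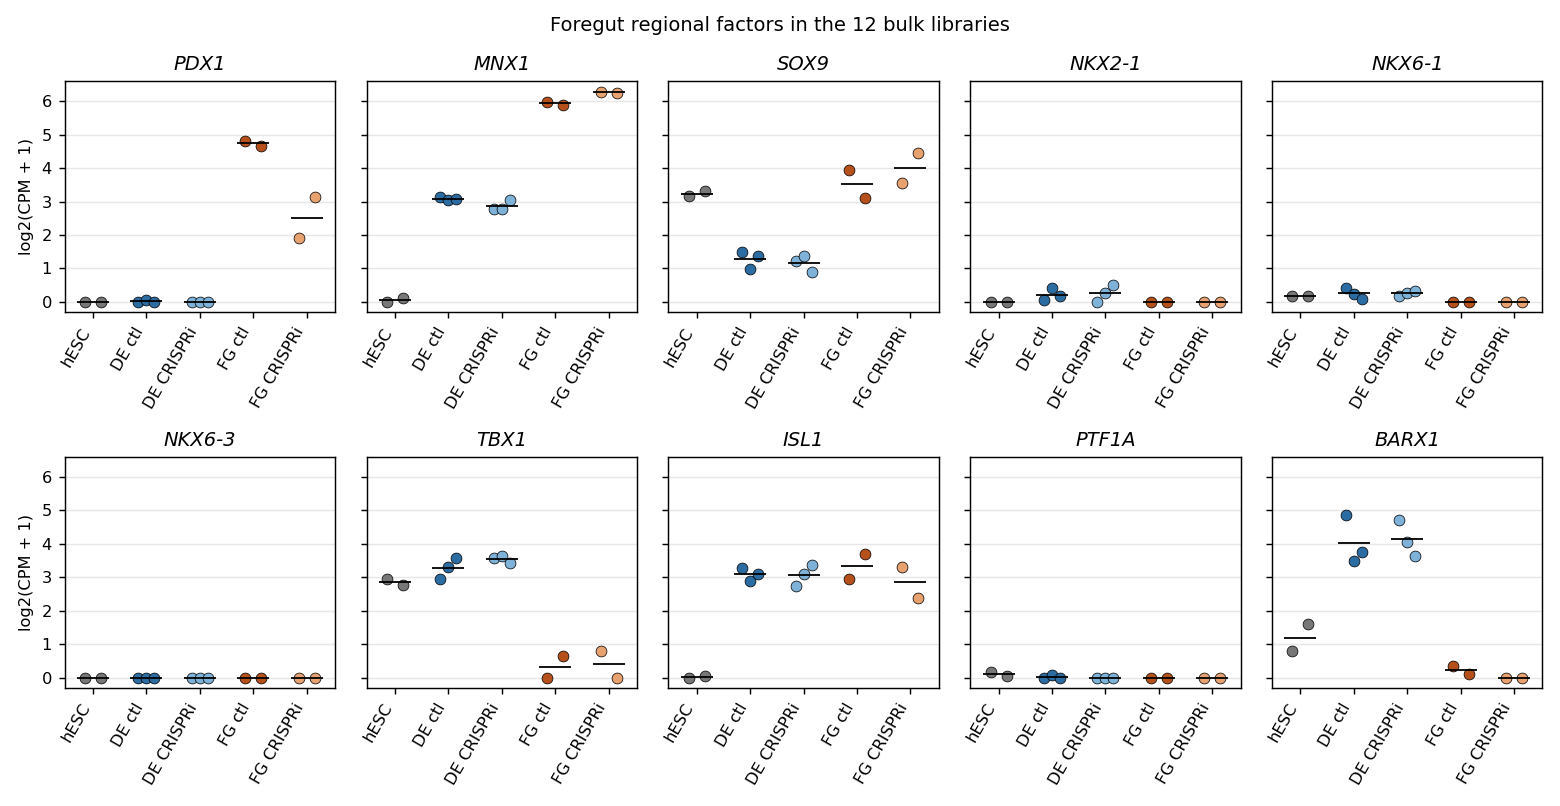
Each panel shows 1 member, with log2(CPM + 1) on the vertical axis and the 5 groups on the horizontal axis (DE, endoderm. FG, foregut. ctl, control). Points are libraries and bars are the means of the plotted values. PDX1 is near 0 outside foregut and lower in the 2 CRISPRi libraries (2.73 and 7.76 CPM) than in the 2 foregut controls (27.4 and 24.4 CPM), MNX1 rises at both steps, and BARX1 and TBX1 are high in endoderm and low in foregut.

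Control foregut differed from control endoderm in 5 of the 10 members. PDX1, MNX1 and SOX9 were higher, and TBX1 and BARX1 were lower. Again 8 members passed the filter, and over all 21466 genes tested 14.1% were called higher and 15% lower. Tissue and deposit batch were the same contrast here.

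PDX1 had 0, 1 and 0 reads in control endoderm and 832 and 962 in control foregut, where it stood at 25.9 ± 2.098 CPM (SD, n = 2). The ratio of summed reads was 1478 (95% counting interval 265 to 58420, adjusted p = 5.9e-06). The 8 hESC and endoderm libraries, CRISPRi included, held 1 PDX1 read in all.

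MNX1 rose from 7.86, 7.30 and 7.46 CPM to 62.7 and 57.9 CPM, or by 3.00 on the log2 scale (SE 0.223, adjusted p = 2.5e-05). Per exon length it was the most abundant member of the foregut, at 14.3 CPM per kb, and PDX1 followed at 9.94 CPM per kb without overlap of their ranges. SOX9 rose from 1.79, 0.964 and 1.59 CPM to 14.4 and 7.60 CPM (log2 fold change 2.92, SE 0.423, adjusted p = 8.7e-04). Its foregut level was close to that of hESC, so SOX9 followed a course down and up again over the 3 stages.

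ISL1 stayed in the range it had reached in endoderm. Endoderm gave 8.81, 6.38 and 7.65 CPM and foregut 6.74 and 12.1 CPM. The groups overlapped, with a log2 fold change of 0.32 (95% interval -0.47 to 1.11). Without the second foregut control the value was -0.12.

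TBX1 fell by 4.86 on the log2 scale (SE 0.908, adjusted p = 0.0033), from 135, 193 and 171 reads to 0 and 22. Its exons share 280 bases with GNB1L on the opposite strand, which held 81 and 261 reads in the same foregut libraries. The library kit was stranded, and the strand setting of the counting was not stated. BARX1 fell by 6.67 (SE 0.725, adjusted p = 1.8e-04), from 564, 222 and 196 reads to 8 and 3. Of the member that led the endoderm, little was thus left in foregut.

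NKX6-1 and NKX2-1 had 0 reads in all 4 foregut libraries. Neither was called between control foregut and control endoderm (adjusted p = 0.11 for NKX6-1 and 0.13 for NKX2-1). Both had at most 7 reads in any endoderm library. PTF1A and NKX6-3 also had 0 reads in all 4 foregut libraries. Few foregut genes had 1 to 5 reads, and removal of duplicate reads was not stated, so a floor of 3 reads may be too low there and no fold is given against these zeros.

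**Figure D2:**
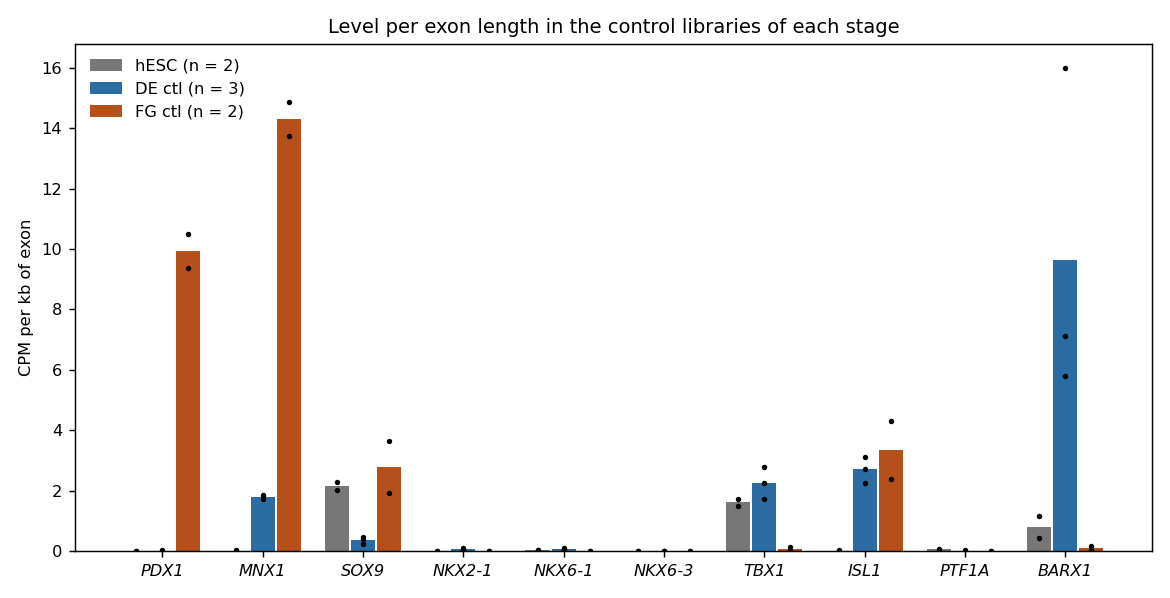
Bars are group means of CPM per kb of exon for each member in the hESC, endoderm control and foregut control libraries, and points are libraries. BARX1 leads in endoderm (9.64 CPM per kb) with 1 library far above the others, and MNX1 (14.3) and PDX1 (9.94) lead in foregut. NKX2-1, NKX6-1, NKX6-3 and PTF1A lie at or near 0 at each stage.

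Partner genes of each region were taken from fixed lists, and genes of several regions were higher in control foregut than in control endoderm. The median log2 fold change of all genes tested was -0.09. Of 13 pancreatic partners, 8 could be tested, 2 were higher and 2 lower, and the median was 1.88. RFX6, an endocrine factor that also acts in early gut endoderm, had 0 reads in control endoderm and 63.2 and 42.8 CPM in control foregut (adjusted p = 1.5e-05). GLIS3 was higher by 2.85 on the log2 scale (SE 0.536, adjusted p = 0.0034), at a mean of 3.16 CPM. NKX2-2, an endocrine factor, was lower, from a mean of 1.57 CPM (3.78, 0.37 and 0.57 CPM) to 0. That mean rested mostly on 1 library, and the caution above on foregut zeros applies here too. NEUROG3, NEUROD1, PAX4, RBPJL and GP2, which mark endocrine or acinar commitment, had 0 reads in both foregut controls.

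Of 10 lung and thyroid partners tested, 0 were called higher in foregut and 5 lower, with a median of -3.40, or -2.32 with genes at 3 or fewer reads in a group set at their bound. These included SCGB3A2, a secretory protein of the airway, which fell from 7.30 CPM in endoderm to 0, TSHR, the thyrotropin receptor, from 1.35 CPM to 0, and ETV5 from 54.0 to 1.48 CPM. Undifferentiated hESC already held SCGB3A2 at 44.5 CPM and ETV5 at 60.4 CPM, so these falls need not concern a lung or thyroid character. TSHR was at 0 in hESC and at 2.39, 0.83 and 0.83 CPM in the endoderm controls, and the caution above on foregut zeros applies to it. PAX8, SFTPB and SFTPC had 0 reads in both foregut controls. HHEX, which acts in liver, thyroid and pancreas, was higher in endoderm than in hESC by 2.89 on the log2 scale (SE 0.220, adjusted p = 7.7e-08), and stood at 44.3 and 22.7 CPM in control foregut.

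Of 9 pharyngeal partners tested, 5 were higher in foregut and 0 lower (median 3.36), while the pharyngeal member TBX1 fell. PAX1, of the pharyngeal pouches, was at 8.79 CPM, HOXA3 at 6.64 CPM and HOXA2 at 4.07 CPM in control foregut, each from 0 CPM in control endoderm. GCM2 and FOXN1, which mark parathyroid and thymus, had 0 reads. Of 8 stomach partners tested, 5 were higher and 0 lower (median 2.80), while the stomach member BARX1 fell. OSR1 was at 20.4 CPM in control foregut against 0 in control endoderm, PITX1 rose from 0.222 to 32.1 CPM, and CLDN18, a tight junction protein of stomach and lung, from 0.719 to 19.8 CPM. The gastric secretory genes TFF2, GKN1 and MUC5AC had 0 reads.

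Genes of neighbouring endoderm moved as well. Of 9 liver genes tested, 6 were higher in foregut and 1 lower (median 8.74). TTR, a serum carrier protein, went from 0 to 1558 and 1930 CPM, and SERPINA1 from 0 to a mean of 35.3 CPM. AFP was at 189 CPM in the first foregut control and 4.76 CPM in the second, so the 2 libraries were unequal. ALB and CEBPA had 0 reads in the foregut controls. Of 5 intestinal genes tested, 3 were higher and 0 lower (median 5.62). VIL1 rose from 0.891 to 111 CPM, ISX from 0.0425 to 33.3 CPM and CDX2, the intestinal homeobox factor, from 0.382 to 18.5 CPM. Of 12 hedgehog and retinoid genes tested, 7 were higher and 1 lower (median 3.20, or 2.64 with bounds). Among them, HOXB1 was at 103 CPM and DHRS3 at 475 CPM in control foregut. The gene called lower was CYP26A1, from 853 to 263 CPM. Of the hedgehog genes, SHH was called higher (2.32 on the log2 scale). PTCH1, GLI1 and HHIP were not called, at -0.94, -3.01 and 0.49. Pancreatic, stomach, pharyngeal, liver and intestinal genes were thus present in the same bulk libraries.

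Markers of other cell types were read beside these lists. The definitive endoderm list was higher in endoderm for 8 of 9 genes tested against hESC, led by GATA6 (366 CPM), SOX17 (242 CPM) and CER1 (3863 CPM). In foregut it was lower for 6 of 9 and higher for 2, and it summed to 802 to 987 CPM in the controls, against 5240 to 5860 CPM in the endoderm controls. The pluripotent list was lower in foregut for 5 of 7 genes and higher for 1, SOX2, which is also on the stomach list. The list summed to 739 to 1034 CPM in control foregut and to 1922 to 2539 CPM in control endoderm. Most of the foregut sum was LIN28A, at 811 and 570 CPM and not called, with SOX2 at 193.3 and 140.5 CPM. POU5F1 was at 2.56 and 4.28 CPM in these foregut controls. The neural list of 9 genes summed to 1.42 to 1.64 CPM in control foregut, with 7 genes at 0 reads, and 3 of 7 tested were lower. The cardiac and lateral mesoderm list summed to 28.4 to 60.1 CPM in control foregut and 18.6 to 34.2 CPM in control endoderm, with 2 genes higher, MYL7 and TNNT2, and 3 lower. The notochord, neural crest and paraxial mesoderm lists summed to at most 5.46 CPM in control foregut, with 1 gene of the 3 lists higher and 4 lower. The part of such cells in the members' levels was not tested.

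The LTR5 sgRNA called 0 of the 10 members in endoderm. Of them 7 could be tested, and over all 20407 genes tested 0.0343% were called. By DESeq2 and by voom 0 members were called too, and 0 had an unadjusted p under 0.05 with a fold over 2. MNX1 was at 7.86, 7.30 and 7.46 CPM in controls and 5.82, 5.93 and 7.23 CPM with the sgRNA, which did not overlap. Its log2 difference was -0.24 (95% interval -0.75 to 0.26, adjusted p = 1.0). ISL1 gave 5.62, 7.60 and 9.25 CPM with the sgRNA (-0.01, 95% interval -0.58 to 0.56), overlapping the controls. BARX1 gave 25.5, 15.7 and 11.4 CPM (0.05, 95% interval -0.73 to 0.83) and again had 1 library above the others. TBX1 gave 10.8, 11.3 and 9.67 CPM (0.28, 95% interval -0.24 to 0.79). SOX9 gave 1.34, 1.57 and 0.841 CPM (-0.18, 95% interval -1.04 to 0.67). The intervals of MNX1, ISL1, TBX1 and BARX1 left out a 2-fold change in either direction, and that of SOX9 did not. PDX1 had 0 reads in the 3 CRISPRi libraries, NKX2-1 had 0, 4 and 5, NKX6-1 had 2, 4 and 3, and PTF1A and NKX6-3 had 0.

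In foregut the sgRNA called 1 of the 10 members, PDX1. Of them 6 could be tested, and over all 20044 genes tested 0.165% were called. PDX1 had 832 and 962 reads in the controls, 27.4 and 24.4 CPM, and 77 and 177 reads with the sgRNA, 2.73 and 7.76 CPM. Both CRISPRi libraries were below both controls, and the 2 CRISPRi libraries differed from each other more than the controls did. PDX1 fell by 2.30 on the log2 scale (SE 0.487, 4.94-fold, adjusted p = 0.0022 by edgeR).

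That call depended on how the spread was estimated. The edgeR fit of these 4 libraries gave every gene the spread of the trend, with no weight on its own, and with 2 libraries against 2 an exact permutation test cannot go below p = 0.333. PDX1 was lower in 13 of 13 alternatives, at -3.21 to -1.74 on the log2 scale, and the adjusted p was under 0.05 in 7 of them. It was 0.14 by voom, 0.079 with all 12 libraries in 1 fit and 1.0 after filterByExpr. All alternatives reused the same foregut libraries or some of them, so the shared direction adds no support. Leaving out the first control gave -2.23 (adjusted p = 0.37), the second control -2.37 (0.16), the first CRISPRi library -1.74 (0.060) and the second CRISPRi library -3.21 (1.5e-04). In each of those 4 fits 1 group was a single library, assumed to vary as the other group and the trend over genes do, so their p-values weigh little either way. Of the 12 libraries, the first foregut CRISPRi library, with the lower PDX1, had the highest mitochondrial share, 34.7%, and the second the fewest detected genes, 15005. Their part in the result was not tested.

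The other members did not pass the test in foregut. MNX1 was at 62.7 and 57.9 CPM in controls and 77.4 and 74.9 CPM with the sgRNA. It did not overlap, and its log2 difference was 0.35 (95% interval -0.34 to 1.03). SOX9 gave 14.4 and 7.60 CPM in controls and 10.8 and 20.7 CPM with the sgRNA (0.53, 95% interval -0.43 to 1.49). ISL1 gave 6.74 and 12.1 CPM in controls and 8.93 and 4.25 CPM with the sgRNA (-0.50, 95% interval -1.66 to 0.65). SOX9 and ISL1 overlapped between groups, and each of the 3 intervals reached past a 2-fold change. Like the PDX1 test, these intervals took their spread from the trend over genes. TBX1 had 0 and 22 reads in controls and 21 and 0 with the sgRNA, so each group held 1 library at 0. BARX1 had 8 and 3 reads in controls and 0 in both CRISPRi libraries, and was not called (adjusted p = 1.0). With PDX1 lower, the order per exon length in CRISPRi foregut was MNX1 (18.1 CPM per kb), SOX9 (4.01), ISL1 (2.34) and PDX1 (2.02), and the ranges of the last 3 overlapped between neighbours.

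**Figure D3:**
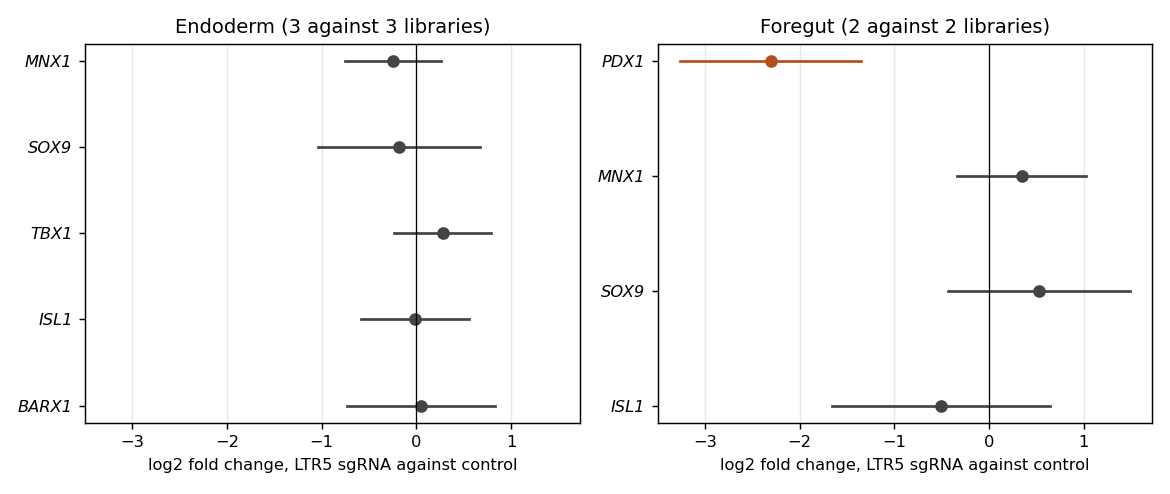
Points are log2 fold changes of the LTR5 sgRNA against control with 95% intervals from the edgeR fit, for members with at least 10 reads in every library of 1 group. Orange marks the call. The foregut intervals took their spread from the trend over genes. The 5 endoderm values lie between -0.24 and 0.28, and in foregut PDX1 lies at -2.30 with an interval of -3.26 to -1.35.

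The difference of the sgRNA effect between foregut and endoderm called 0 of the 10 members, against 0.194% of 22708 genes, and 0 by DESeq2 and voom. At an unadjusted p under 0.05 and a fold over 2 there was 1, BARX1, whose foregut libraries held 0 to 8 reads. MNX1 was lower with the sgRNA in endoderm and higher in foregut without overlap in either, and the difference was 0.58 (95% interval -0.11 to 1.28, adjusted p = 0.69). It was 0.70 (95% interval -0.71 to 2.11) for SOX9 and -0.49 (95% interval -1.76 to 0.77) for ISL1. The separation of the MNX1 groups within each tissue weighs little at these sizes. An exact permutation test cannot go below p = 0.333 at 2 against 2 or 0.1 at 3 against 3. For PDX1 the difference could not be read, since endoderm held 1 read in 6 libraries.

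Of the partner lists, 2 genes were called with the sgRNA in foregut, and 0 in endoderm. CDX2 gave 24.8 and 12.2 CPM in controls and 1.63 and 3.77 CPM with the sgRNA, without overlap. It fell by 2.77 (SE 0.566, adjusted p = 9.9e-04), and the call was lost by voom (adjusted p = 0.74), filterByExpr (1.0), all 12 libraries in 1 fit (0.051), the replicate block (0.054) and without the first control (-2.18, adjusted p = 1.0). AFP gave 189 and 4.76 CPM in controls and 0.0355 and 0 CPM with the sgRNA. Its call was lost without the first control (adjusted p = 1.0), by voom (0.96) and after filterByExpr (0.76). Of the pancreatic partners 0 of 7 tested were called, and RFX6 gave 63.2 and 42.8 CPM in controls and 31.2 and 40.1 CPM with the sgRNA. The summed intestinal list was 159 to 170 CPM in controls and 85.4 to 96.7 CPM with the sgRNA. The stomach list was 452 to 512 and 307 to 442 CPM, and the lung and thyroid list 28.5 to 50.5 and 16.9 to 20.9 CPM. The summed pancreatic list was 52.7 to 82.3 against 40.8 to 51.0 CPM, also without overlap, and RFX6 was its largest part. The pharyngeal and liver lists overlapped, at 43.0 to 64.2 against 36.7 to 67.9 CPM and 2964 to 3480 against 2664 to 3216 CPM. The cardiac list overlapped too, at 28.4 to 60.1 against 42.1 to 66.3 CPM. The neural crest list was 4.54 to 5.29 CPM in controls and 11.4 to 11.8 CPM with the sgRNA, without overlap. Its largest part with the sgRNA was SNAI2, at 1.38 and 2.69 CPM in controls and 6.95 and 8.42 CPM with the sgRNA (1.92 on the log2 scale, SE 0.788, adjusted p = 1.0). FOXD3 and TFAP2B had 0 reads in all 4 foregut libraries, and 0 of the 3 tested genes of the list were called. The summed notochord and paraxial mesoderm lists overlapped between these groups. The part of these list levels in the PDX1 result was not tested. In endoderm, the summed cardiac and lateral mesoderm list was 18.6 to 34.2 CPM in controls and 51.3 to 70.25 CPM with the sgRNA, without overlap. Its largest part was HAND1 (1.45 on the log2 scale, SE 0.277, adjusted p = 0.20 by edgeR), which was not called. The definitive endoderm list was 5240 to 5860 against 5890 to 6974 CPM, also without overlap. The other summed lists overlapped between the endoderm groups.

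**Figure D4:**
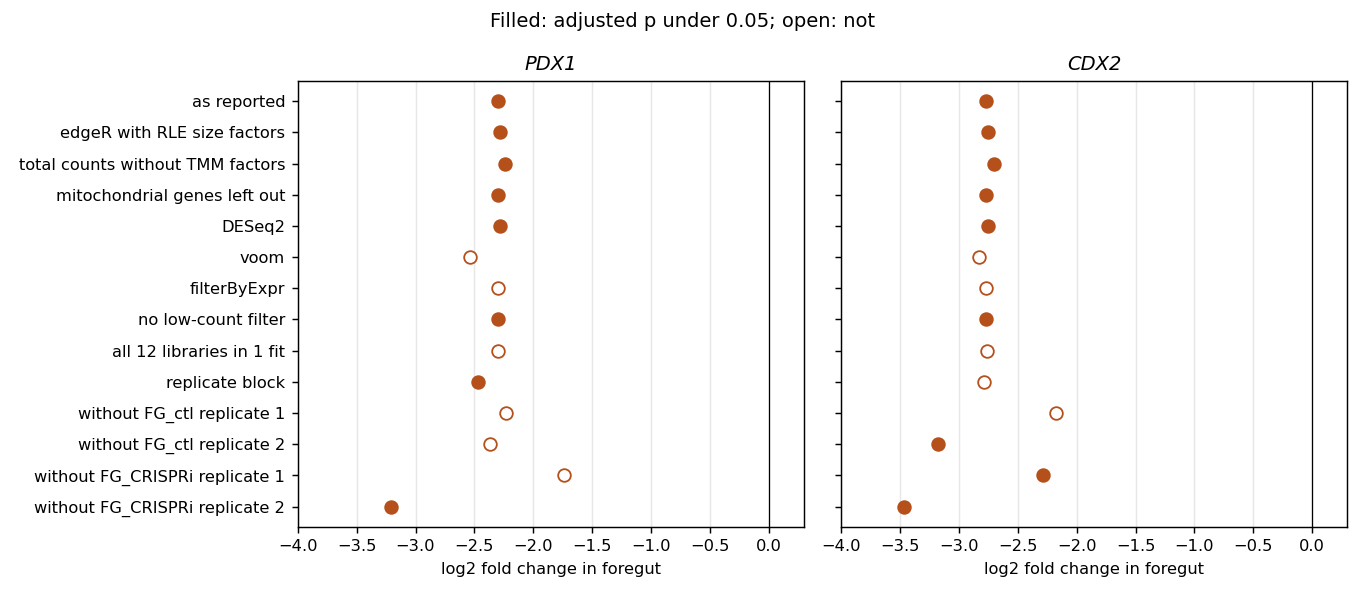
Points are log2 fold changes of PDX1 and CDX2 in foregut, LTR5 sgRNA against control, under each setting named on the vertical axis. Filled points have an adjusted p under 0.05. PDX1 lies between -3.21 and -1.74 and CDX2 between -3.47 and -2.18, below 0 in every setting, and both calls depend on the setting. The settings reuse the same foregut libraries or some of them, so their shared direction adds no support.

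On GRCh37, the closest of 1288 LTR5_Hs, LTR5B and LTR5A integrants was 592.7 kb from TBX1 (chromosome 22) and 1143 to 4176 kb from the other 9 members. Thus 0 of 10 had one within 500 kb, against 38.3% of 22011 placed genes, whose median distance was 801.7 kb. PDX1 (chromosome 13, 28494137 to 28500450) was 1410 kb from its closest integrant, which was of the LTR5B subfamily and held 0 reads in the 12 libraries.

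The genes whose levels most resembled each member over the 12 libraries were ranked by Pearson's r of log2(CPM + 1), as a description over libraries that share stages. PDX1 was followed most closely by HABP2 (r = 0.992) and PRR15L (r = 0.991). HABP2 was at 19.7 CPM in control and 6.38 CPM in CRISPRi foregut, and PRR15L at 7.08 and 3.29 CPM. MNX1 was nearest to LINC00261 (r = 0.993), a transcript beside FOXA2, and IGFBP5 (r = 0.991), which stepped up at both stages, from 1.68 to 38.5 to 2088 CPM. SOX9 was nearest to TMEM35A (0.986) and ABRACL (0.983), TBX1 to PVT1 (0.988) and BIRC5 (0.986), and BARX1 to PFKFB3 (0.989) and GLRA4 (0.988). For ISL1, PALM (0.972) was among the closest.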

How the data were processed

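The members and gene lists were chosen with earlier results of these data known. For the bulk libraries, the authors aligned poly(A) RNA-seq reads to hg19 with HISAT2 and used featureCounts to count uniquely mapped reads over genes and over transposable element integrants. The deposited values are raw counts. For the gastruloids, the deposited counts are UMIs per gene and nucleus, and the peaks are positions, both by cellranger-arc 2.0.0 on GRCh38.

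Here, all genes with at least 3 reads in 1 library were tested with edgeR 4.0.16 (quasi-likelihood test, TMM) in R 4.3.3. Only the groups compared entered each fit, without a replicate block, and tests were 2-sided. The alternatives used DESeq2 1.42.0, voom in limma 3.58.1, other scalings and filters, and libraries left out. The study's own test, voom, was an alternative because the values are counts. Levels are CPM on TMM library sizes over the 12 libraries, and exon lengths come from GENCODE v44lift37. Fold changes of members with fewer than 10 reads in some library of every group are given as reads or ratios, a limit set after seeing the data. Counting intervals are exact binomial for read ratios and exact Poisson for UMIs, at 95%. Partner genes were named by rule: up to 3 called genes per list and comparison, by size of change, with a group mean of at least 1 CPM. List genes at 0 reads, and RFX6, HHEX, VIL1, GATA4, HAND1 or SNAI2 outside their calls, were named after their values were seen. A few genes of the lists were not matched, and some results are not reported here. Levels were computed in python 3.11.15 (pandas 2.3.3, scipy 1.17.1) and drawn with matplotlib 3.10.9.

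The tests were run on simulated data with 200 genes changed 4-fold. They recovered 182 of 200 for endoderm against hESC, 147 for foregut against endoderm, 183 and 100 for the sgRNA in endoderm and foregut, and 84 for the difference, with 15, 27, 14, 18 and 12 false calls. In each comparison, false calls were a larger share of the calls than the 0.05 set for the adjusted p. The changed genes were drawn from those above a floor of mean reads, so recovery at low counts was not covered.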

Additional observations from a re-analysis of the deposited data

Results flagged for a closer look

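HAND1, a lateral mesoderm factor, passed the test of the difference of the sgRNA effect between foregut and endoderm, at -8.36 on the log2 scale (adjusted p = 0.028 by edgeR). That size depends on the prior count, since both foregut CRISPRi libraries had 0 reads. In endoderm it was at a mean of 45.9 CPM with the sgRNA and 17.0 CPM in controls, and in foregut at 0.633 CPM in controls and 0 with the sgRNA. The call was lost by voom, after filterByExpr and without the first or second endoderm control, the first endoderm CRISPRi library, or either foregut control, with adjusted p from 0.052 to 0.096.

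The gastruloid nuclei, which entered no comparison, held UMIs of 4 members above the floor of 3 UMIs (0.0501 per 1000000 UMIs, of 59934288 in all). MNX1 was at 45.1 UMIs per 1000000 (exact Poisson 95% interval 43.4 to 46.8), SOX9 at 25.6 (24.4 to 27.0), NKX6-1 at 12.9 (12.0 to 13.9) and TBX1 at 8.51 (7.79 to 9.28). NKX6-1, with 775 UMIs there, had at most 7 reads in any bulk library. The other 6 members were not found among the genes of the deposited matrix, so they have no value in these nuclei. There was 1 preparation of 3646 nuclei, so these values have no replicate. They are sums over all nuclei in the deposited matrix, from which no doublets were removed here, and the share of free RNA in them was not measured.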

How the results depend on the processing

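The counts of members called between stages kept their side of the 1.5-fold limit in every alternative run, at 4 to 5 members for endoderm against hESC and 5 to 6 for foregut against endoderm. The count for the sgRNA in endoderm was 0 in every alternative. For the sgRNA in foregut it went from 1 to 0 by voom, after filterByExpr and with all 12 libraries in 1 fit, and ranged from 0 to 1 when 1 library was left out. For the difference between tissues it went from 0 to 1 at an unadjusted p with a fold over 2. With a replicate block, PDX1 in foregut was at -2.47 (adjusted p = 0.043). Same-numbered libraries correlated between -0.17 and 0.106 in their deviations from group means, so the numbers were not taken as pairs, and the block changed no call of a member. Uncalled values that changed sign lay close to 0. ISL1 in endoderm with the sgRNA was 0.00 after filterByExpr, and it ranged from -0.19 to 0.17 when 1 library was left out. Over the same fits SOX9 ranged from -0.41 to 0.03 and BARX1 from -0.30 to 0.65 in endoderm with the sgRNA. ISL1 in foregut with the sgRNA ranged from -1.15 to 0.00, and ISL1 in foregut against endoderm from -0.12 to 0.67. The counts of all genes called moved by over 1.5 times in several settings. In endoderm with the sgRNA, 7 genes became 53 by DESeq2, 186 with no filter, 550 at an unadjusted p, and 1 by voom, with total counts, after filterByExpr or with all 12 libraries. In foregut with the sgRNA, 33 genes became 11 by voom, 1 after filterByExpr, 209 with all 12 libraries, 504 at an unadjusted p and 19 with the replicate block. For the difference, 44 genes became 229 by DESeq2, 0 after filterByExpr, 139 with no filter, 89 with all 12 libraries, 1682 at an unadjusted p and 16 with the block. With 1 library left out these counts ranged from 1 to 9, 16 to 527 and 0 to 805, and the 527 and 805 came without the first foregut CRISPRi library. The causes were not tested. The sgRNA comparison in foregut was limited by 2 libraries a group, large steps between low counts, and 50% of the 4-fold changes recovered in simulation for the sgRNA. False calls in that simulation were also a larger share of the calls than the 0.05 set.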
